A study of Macaca mulatta with 17 samples.

Results

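The 10 genes described here encode the D cyclins (CCND1, CCND2 and CCND3), cyclin-dependent kinase (CDK) inhibitors of the CIP/KIP class (CDKN1A and CDKN1B) and the INK4 class (CDKN2A and CDKN2C), and the pocket proteins (RB1, RBL1 and RBL2). They were chosen by symbol, as named in the description of the probe on the array, and 10 of 10 were found among 16441 named genes. A further 10 probes whose descriptions mention one of these symbols only as part of another gene's name were not used. The 10 genes had 11 probes of 20217 on the array, because RBL1 had 2. Where a gene had more than 1 probe, the one with the highest mean signal was used.

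D cyclins bind CDK4 and CDK6 when a cell is called on to divide, and the paired enzymes phosphorylate the pocket proteins, which then release E2F transcription factors and let the cell copy its DNA. INK4 inhibitors bind CDK4 and CDK6 and keep the D cyclins off, while CIP/KIP inhibitors bind assembled cyclin and CDK pairs. The fetal uterus grows by division of mesenchymal, smooth muscle and epithelial cells. The comparisons below address how the genes of this checkpoint differed between mid gestation and term, and between fetuses of dams given bisphenol A (BPA) and controls.

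RNA came from one side of the uterus, cut from fundus to cervix, of individual female rhesus macaque fetuses, 1 array each, with 17 arrays on 6 slides. The GD100 control group (n = 5) and GD100 BPA group (n = 5) were delivered by caesarian section on gestational day 100, after the dams had eaten a daily fruit treat with vehicle (ethanol) or with 400 µg deuterated BPA per kg from day 50. The GD165 control group (n = 4) and GD165 BPA group (n = 3) were delivered vaginally near day 165, after the same treats from day 100, and uteri of stillborn fetuses were not arrayed. Age therefore cannot be told apart from the mode of delivery, and the 2 BPA groups differ in the window of exposure as well as in age. In tissue RNA, fewer cells of a type cannot be told apart from less RNA per cell.

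Levels are log2 signals scaled to the same 75th percentile on every array, and a level of one gene cannot be set against that of another because probes differ in brightness. Tests are from limma, fitted to all 17 arrays, with p adjusted over all 20217 probes and a threshold of 0.01. The share of spots well above background was 83.8 to 89.0%, depending on the array. Markers of the Mullerian tract (ESR1, HOXA10, HOXA11, EMX2 and PAX2) were above background in every group. The summed signal of 5 skeletal muscle markers was 178 to 1755 at GD100 and 1719 to 71561 at GD165, where GD165 control replicate 5 (71561) and GD165 BPA replicate 5 (39142) stood above the other 5 arrays (at most 7471). The summed signal of 6 leukocyte markers was 19536 to 37812 at GD100 and 58658 to 147902 at GD165. Of those 6 markers, 4 rose in the mean over both treatments, among them PTPRC, which encodes the pan-leukocyte protein CD45 (log2 1.32, adjusted p = 0.0070). In the GD100 controls the skeletal muscle genes CKM and MYL1 were not well above background. Summed signals of 5 endothelial markers were 27667 to 52884 at GD100 and 51982 to 104547 at GD165, and those of 4 epithelial markers were 49231 to 86535 and 85953 to 151523. These sums are led by the brightest markers. In the mean over both treatments, where 22.4% of all probes passed, 2 of the 5 endothelial markers rose. Of that list KDR lay lower (log2 −0.30) without passing. Of the 4 epithelial markers 2 rose, and CDH1 (log2 −0.13) and KRT8 (log2 −0.47) lay lower without passing. Of 5 smooth muscle markers 2 rose in the mean over both treatments, among them CNN1 (log2 1.31), and of 4 stroma markers 1 fell, PDGFRA (log2 −0.48). Among 5 erythroid markers the globin gene HBB rose by 5.56 and the other 4 did not pass. The part of these cells in the results below was not tested.

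Among the 10 genes, 9 were well above background on all 17 arrays and none of their probes was saturated on any. CDKN2A, the INK4 gene that also encodes the ARF tumor suppressor, was not well above background on any of the 17 arrays, so no change is given for it. Between the control ages 2 of the 9 measured genes passed the threshold, and both fell. These were CCND2, 1.75-fold lower at GD165, and CDKN2C, 1.83-fold lower. Over all probes, 11.5% passed in this comparison. In the BPA-exposed animals, which share no array with the controls, 2 of 9 passed and both were D cyclins that fell, CCND2 and CCND3, beside 9.68% of all probes. When the age difference was averaged over both treatments 6 of 9 passed, beside 22.4% of all probes. CCND2, CCND3 and CDKN2C fell, while CDKN1A, CDKN1B and RBL2 rose. None of the 3 that rose passed in either treatment alone. With an animal left out, CDKN1B kept its call in 6 of 17 fits and RBL2 in 2 of 17.

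The probes of the 4 genes with the largest age differences in the average over both treatments are shown by their first 30 of 60 bases, as read from the array files, so that the measured stretch can be traced. No base is set in capitals.
CCND2: cattggctatgatggtgacatgatatagtc
CCND3: agcattccttttgagcgccccccacccctg
CDKN2C: atccaacttgaagactttgtttttaaaatg
CDKN1A: aacaccttccagctcctgtatcatactggc
Probe GC content ran from 31.7% for CDKN2C to 55% for CCND3 over the 11 probes. The CCND3 probe was annotated to a rhesus expressed sequence similar to human CCND3 and the RBL2 probe to a predicted rhesus transcript. The others were annotated to human transcripts, which does not tell what sequence they were designed on. Their identity to the rhesus genome was not tested here. The SD between the spots of a probe was 0.02 to 0.10 on the log2 scale for the 10 probes of the measured genes, and the SD between animals within groups was 0.08 to 0.41. For RB1 these were 0.07 and 0.08. The first is for single spots and the second for levels that are means of both spots, so they are not directly comparable.

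The plot of levels by group shows each array.

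**Figure D1:**
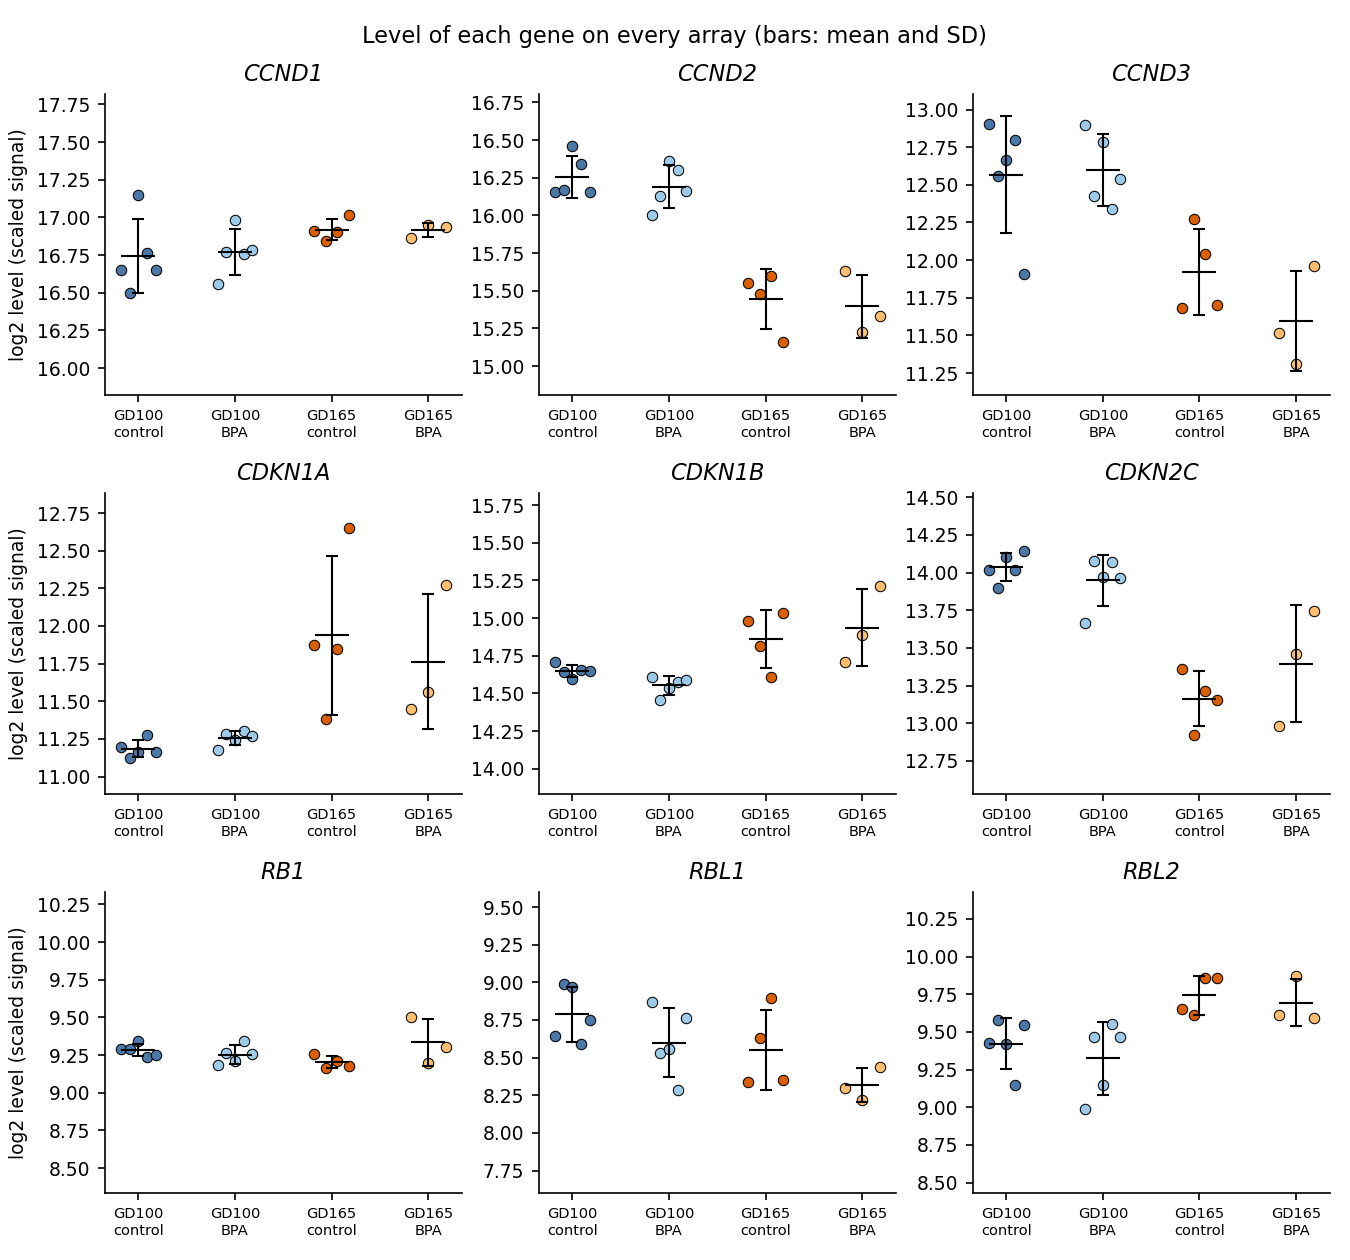
Level of 9 genes on each of the 17 arrays, by group, with the mean and SD as bars. The vertical axis is the scaled log2 signal and spans 2 log2 units in every panel. The GD165 arrays lie below all GD100 arrays for CCND2 and above all of them for CDKN1A and RBL2.

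Among the D cyclins, CCND2 drives division in many embryonic and hormone-responsive tissues. It was the one whose fall passed the threshold in both controls and BPA-exposed animals. Its levels were 16.16, 16.17, 16.46, 16.34 and 16.15 in the 5 GD100 controls and 16.0001, 16.13, 16.36, 16.30 and 16.16 in the 5 GD100 BPA animals. At GD165 they were 15.55, 15.48, 15.60 and 15.16 in the controls and 15.63, 15.23 and 15.33 in the BPA animals. Every GD165 array was below every GD100 array. The log2 difference was −0.81 in controls (standard error 0.12, adjusted p = 2.0e-04) and −0.79 in BPA-exposed animals (standard error 0.13, adjusted p = 6.5e-04). In the exact permutation test the control difference had a two-sided p of 0.0159 and the BPA-exposed difference one of 0.0357, the smallest that groups of these sizes give. Over the 4 slides that held both ages, the difference within a slide was −1.06 to −0.69, mixing the treatments with 1 to 3 arrays per age. Within a treatment it was −0.98 and −0.61 on 2 slides for controls and −0.83 on 1 slide for BPA-exposed animals. With slide as a fixed block the adjusted p in BPA-exposed animals was 0.0174 and without scaling between arrays it was 0.0106, and both missed the threshold.

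CCND3, a D cyclin abundant in lymphoid and differentiating cells, had levels of 12.90, 12.56, 12.66, 12.80 and 11.91 in GD100 controls and 11.68, 12.27, 12.04 and 11.70 in GD165 controls. GD100 control replicate 5, at 11.91, lay inside the GD165 range, and the log2 difference of −0.64 (standard error 0.20) did not pass (adjusted p = 0.035). Without that animal it was −0.81, with an adjusted p of 0.0052. In the BPA-exposed animals the levels were 12.90, 12.43, 12.79, 12.34 and 12.54 at GD100 and 11.52, 11.31 and 11.96 at GD165, without overlap. The log2 difference there was −1.003 (standard error 0.22, adjusted p = 0.0055), or 2.004-fold lower at GD165. Leaving out GD100 BPA replicate 1, 3 or 5 or GD165 BPA replicate 3 or 4 took the adjusted p to between 0.0103 and 0.0368. Averaged over both treatments CCND3 fell by 0.82 (adjusted p = 6.2e-04), with an adjusted p that stayed under the threshold in every alternative tried.

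CCND1, the D cyclin most often amplified in tumors, had group means of 16.74 ± 0.24 (SD, n = 5) and 16.77 ± 0.15 (SD, n = 5) in GD100 control and BPA animals. At GD165 they were 16.92 ± 0.07 (SD, n = 4) and 16.92 ± 0.05 (SD, n = 3). The age difference in the mean over both treatments was 0.16, with a 95% confidence interval of −0.02 to 0.34 (adjusted p = 0.16). So of the 3 D cyclins, 2 fell with age in that mean, where 22.4% of all probes passed, and CCND1 did not pass.

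The CDK inhibitors were divided between lower and higher levels at term. CDKN2C encodes p18, an INK4 inhibitor of CDK4 and CDK6. Its levels were 14.02, 13.90, 14.11, 14.02 and 14.14 in GD100 controls and 13.36, 12.92, 13.21 and 13.16 in GD165 controls, without overlap. The log2 difference was −0.87 (standard error 0.14, adjusted p = 4.2e-04, exact permutation two-sided p = 0.0159). In BPA-exposed animals the levels were 13.66, 14.08, 13.97, 14.07 and 13.97 at GD100 and 12.98, 13.46 and 13.75 at GD165. GD165 BPA replicate 5, at 13.75, lay above GD100 BPA replicate 1, at 13.66, and the log2 difference of −0.55 (standard error 0.15) did not pass (adjusted p = 0.017). Without GD165 BPA replicate 5 it was −0.73 (adjusted p = 0.0058), and without GD165 BPA replicate 3, the lowest of the group, it was −0.35 (adjusted p = 0.097). With slide as a fixed block the control difference was −0.89, and its adjusted p of 0.0111 missed the threshold.

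CDKN1A encodes p21, which is induced by DNA damage signaling and accompanies differentiation in many tissues. The GD100 levels were close together, at 11.20, 11.12, 11.17, 11.28 and 11.17 in controls and 11.18, 11.28, 11.24, 11.30 and 11.27 in BPA animals. At GD165 they spread over 11.87, 11.38, 11.85 and 12.65 in controls and 11.45, 11.56 and 12.27 in BPA animals. All 7 GD165 arrays were above all 10 GD100 arrays. The SD between animals was 0.06 in GD100 controls and 0.05 in GD100 BPA animals, against 0.53 and 0.45 at GD165. The log2 difference was 0.75 in controls (standard error 0.20, adjusted p = 0.014) and 0.51 in BPA-exposed animals (standard error 0.22, adjusted p = 0.11), and neither passed. Averaged over both treatments CDKN1A rose by 0.63 (standard error 0.15, adjusted p = 0.0039), and over the 4 slides with both ages it was 0.21 to 1.36 higher at GD165 on the log2 scale. Those slide differences mix the treatments and rest on 1 to 3 arrays per age. Within a treatment they were 0.22 and 0.71 on 2 slides for controls and 1.01 on 1 slide for BPA-exposed animals.

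GD165 control replicate 6 (12.65) and GD165 BPA replicate 5 (12.27) were the highest CDKN1A arrays. The skeletal muscle sum was 7471 on the former and 39142 on the latter. Without GD165 BPA replicate 5 the averaged CDKN1A difference was 0.50 (adjusted p = 0.0134), and the control difference, unaltered in size, had an adjusted p of 0.0068. Without GD165 control replicate 3, the lowest of the 4, the control difference was 0.94 (adjusted p = 0.0032). With both arrays that were highest in skeletal muscle markers left out, a setting chosen after seeing the data, the averaged CDKN1A difference was 0.52 and did not pass (adjusted p = 0.0174). In that setting it was 0.78 in controls (adjusted p = 0.0118) and 0.25 in BPA-exposed animals (adjusted p = 0.47).

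CDKN1B encodes p27, which holds CDK2 inactive in resting cells. Its GD100 levels ran from 14.60 to 14.71 in controls and from 14.46 to 14.61 in BPA animals. At GD165 they ran from 14.61 to 15.03 in controls, where replicate 5 lay inside the GD100 range, and from 14.71 to 15.21 in BPA animals, without overlap. The log2 difference was 0.21 in controls (adjusted p = 0.17) and 0.38 in BPA-exposed animals (adjusted p = 0.023). The averaged difference of 0.30 (standard error 0.08) passed with an adjusted p of 0.0065, but lost the call in 11 of 17 fits with an animal left out, with a highest adjusted p of 0.0208.

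Of the pocket proteins, RBL2 (p130), which represses E2F targets in resting cells, had levels of 9.42, 9.58, 9.42, 9.15 and 9.55 in GD100 controls and 8.99, 9.47, 9.15, 9.55 and 9.47 in GD100 BPA animals. The GD165 levels were 9.65, 9.61, 9.86 and 9.86 in controls and 9.62, 9.87 and 9.59 in BPA animals. All GD165 arrays were above all GD100 arrays, though the lowest (9.59) and the highest (9.58) of these nearly met. The log2 difference was 0.32 in controls (adjusted p = 0.0855) and 0.37 in BPA-exposed animals (adjusted p = 0.069). The averaged difference of 0.35 (standard error 0.09) had an adjusted p of 0.0096, just inside the threshold. It was outside it in 15 of 17 fits with an animal left out. It was also outside it with scaling to the median, quantile normalization, no scaling, slide as a fixed or a random block, the replicate block, and without both arrays highest in skeletal muscle markers. The highest of these adjusted p-values was 0.0675, with slide as a fixed block.

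RBL1 (p107), itself an E2F target that is most abundant in dividing cells, was measured by a pair of probes, annotated to transcript variants 1 and 2. The probe used, for variant 1, and the second probe, for variant 2, began as follows.
RBL1 variant 1: tgctaccaccattcagggttgtctccttct
RBL1 variant 2: gtaaggtgaataggctaaaagctggatttc
The brighter probe gave means of 8.79 ± 0.18 (SD, n = 5) and 8.60 ± 0.23 (SD, n = 5) in GD100 control and BPA animals, and 8.55 ± 0.26 (SD, n = 4) and 8.32 ± 0.11 (SD, n = 3) at GD165. Its averaged age difference was −0.26 (95% confidence interval −0.48 to −0.04, adjusted p = 0.067). With slide as a fixed block it was −0.33 and passed (adjusted p = 0.0064). On the second probe the averaged difference was −0.08, with an interval of −0.49 to 0.33 that contains the value of the brighter probe. In controls alone the age difference was −0.23 on the brighter probe and 0.03 on the second, and neither passed.

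RB1, the retinoblastoma protein, had means of 9.28 ± 0.04 (SD, n = 5) in controls at GD100 and 9.20 ± 0.04 (SD, n = 4) at GD165. In BPA animals they were 9.25 ± 0.06 (SD, n = 5) at GD100 and 9.33 ± 0.16 (SD, n = 3) at GD165. The log2 difference with age was −0.08 in controls (95% confidence interval −0.23 to 0.07, adjusted p = 0.46) and 0.08 in BPA-exposed animals (−0.08 to 0.24, adjusted p = 0.47). In the exact permutation test the control difference had a two-sided p of 0.0476, unadjusted.

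**Figure D2:**
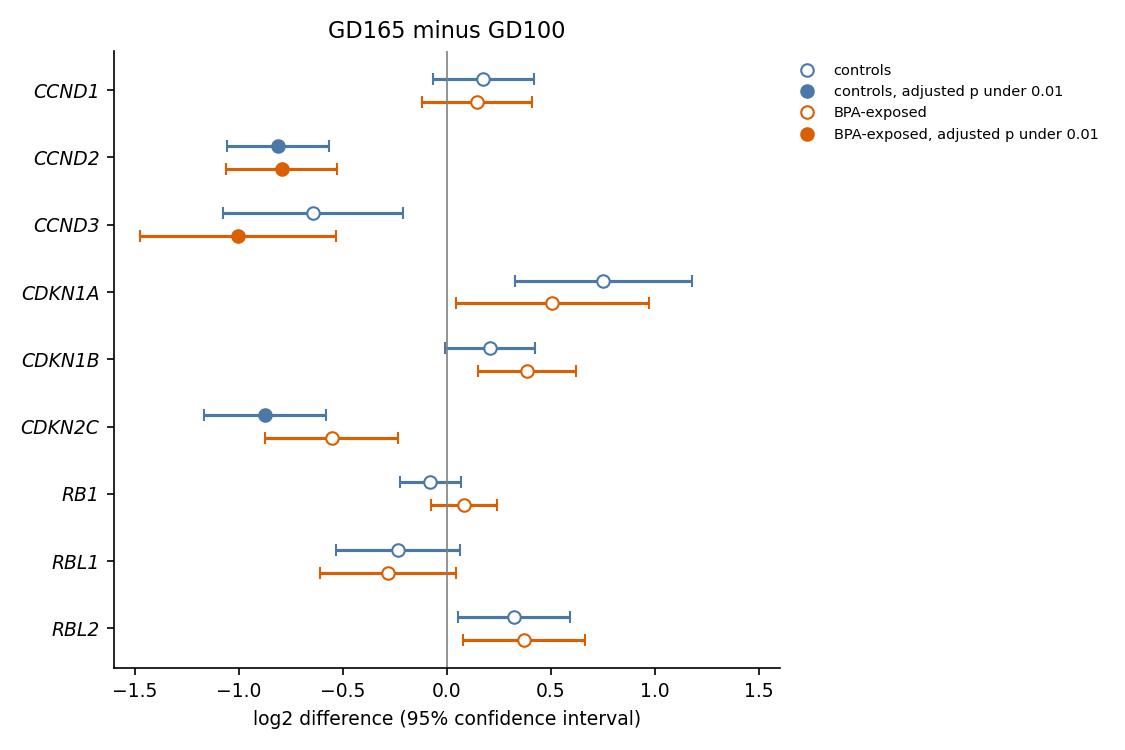
Log2 difference between GD165 and GD100 for 9 genes, in controls and in BPA-exposed animals, with 95% confidence intervals. Filled points passed an adjusted p of 0.01, and these are CCND2 and CDKN2C in controls and CCND2 and CCND3 in BPA-exposed animals.

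In all, 4 of 9 genes had no overlap between the control ages (CCND2, CDKN1A, CDKN2C and RBL2), beside 19.4% of all probes. In the BPA-exposed animals 5 of 9 did not overlap (CCND2, CCND3, CDKN1A, CDKN1B and RBL2), beside 27.2%. With all 7 GD165 arrays set against all 10 GD100 arrays, 3 of 9 did not overlap, beside 9.48%. The direction of the age difference was the same in controls and BPA-exposed animals for 8 of 9 genes, RB1 being the exception, and for 70.7% of all probes. Averaged over both treatments, 6 of 9 passed, 3 higher and 3 lower, where 22.4% of probes passed. This average uses the same arrays as the 2 separate age comparisons. The median log2 difference of the 9 genes in controls was −0.08 and that of all probes was 0.00460.

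The other genes of the G1/S network, the proteins that set the timing of DNA replication, were compared between the ages as a list of 41, of which 35 were on the array by name. In controls 14 fell, 3 rose and 18 did not pass, with a median log2 difference of −0.22. In BPA-exposed animals 11 fell, 3 rose and 21 did not pass. Over all probes, 11.5% passed in controls and 9.68% in BPA-exposed animals. Of 6 kinase and E cyclin genes, 4 fell in controls. Cyclin E genes CCNE1 and CCNE2 fell by 0.86 and 1.27 on the log2 scale, CDC25A, the phosphatase that activates CDK2, fell by 0.76, and CDK4 fell by 0.36. CDK6 was at −0.21 (adjusted p = 0.16) and CDK2 at −0.22 (adjusted p = 0.37), and CDK2 passed only in the average over both treatments (−0.44, adjusted p = 0.0089).

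The INK4 genes did not move together. CDKN2D, which encodes p19, fell by 0.82 in controls (adjusted p = 5.8e-05) and by 0.52 in BPA-exposed animals (adjusted p = 0.0038). CDKN2B, which encodes p15 and is induced by TGF-beta, rose from 7.65 ± 0.37 (SD, n = 5) to 9.15 ± 0.46 (SD, n = 4) in controls (log2 1.5, adjusted p = 0.0058). In BPA-exposed animals it rose by 1.72 (adjusted p = 0.0051). So among the INK4 genes above background, CDKN2C and CDKN2D fell and CDKN2B rose in controls.

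The activating factors E2F1 and E2F2 fell by 1.18 and 1.33 in controls, and the atypical repressors E2F7 and E2F8, themselves E2F targets, by 1.33 and 1.74. The other 6 E2F and DP genes did not pass, and they lay between −0.31 for E2F5 and 0.36 for TFDP2. Partners of the MuvB complex that drive mitotic genes fell, with log2 differences of −1.48 for MYBL2 and −1.36 for FOXM1, and the histone-binding MuvB subunit RBBP4 fell by 0.28. DYRK1A of the same group did not pass (−0.14, adjusted p = 0.11), and LIN9, LIN37, LIN52 and LIN54 had no probe by name. SKP2 and CKS1B, which mark p27 for destruction, fell by 0.71 and 0.59. The other 3 genes of the ubiquitin ligase group did not pass, with SKP1 at 0.07, CUL1 at 0.11 and FBXW7 at −0.11. None of the CDK-activating kinase genes CDK7, CCNH and MNAT1 passed in controls (0 of 3, lowest adjusted p = 0.38). Of 5 stress and antiproliferative genes, GADD45A and BTG2 rose by 1.85 and 1.03 in controls. The other 3 did not pass, with CCNG1 at 0.34 (adjusted p = 0.20), SESN1 at 0.09 (adjusted p = 0.62) and MDM2 at −0.05 (adjusted p = 0.83).

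All 11 proliferation markers on the array of a list of 12 fell in controls, by a median of 1.24 on the log2 scale. MKI67, which encodes the Ki-67 antigen, fell by 1.68 (adjusted p = 2.5e-04), the largest change of the list, and CDK1 by 0.80, the smallest. In BPA-exposed animals 11 of 11 fell as well, with a median of −1.01. The shares of all probes that passed were 11.5% in controls and 9.68% in BPA-exposed animals. These values are RNA. The paper also stained the Ki-67 protein in uteri of this study and saw no significant decrease in positive cells at GD165. It holds the effect of its cell cycle RNA changes to be uncertain.

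**Figure D3:**
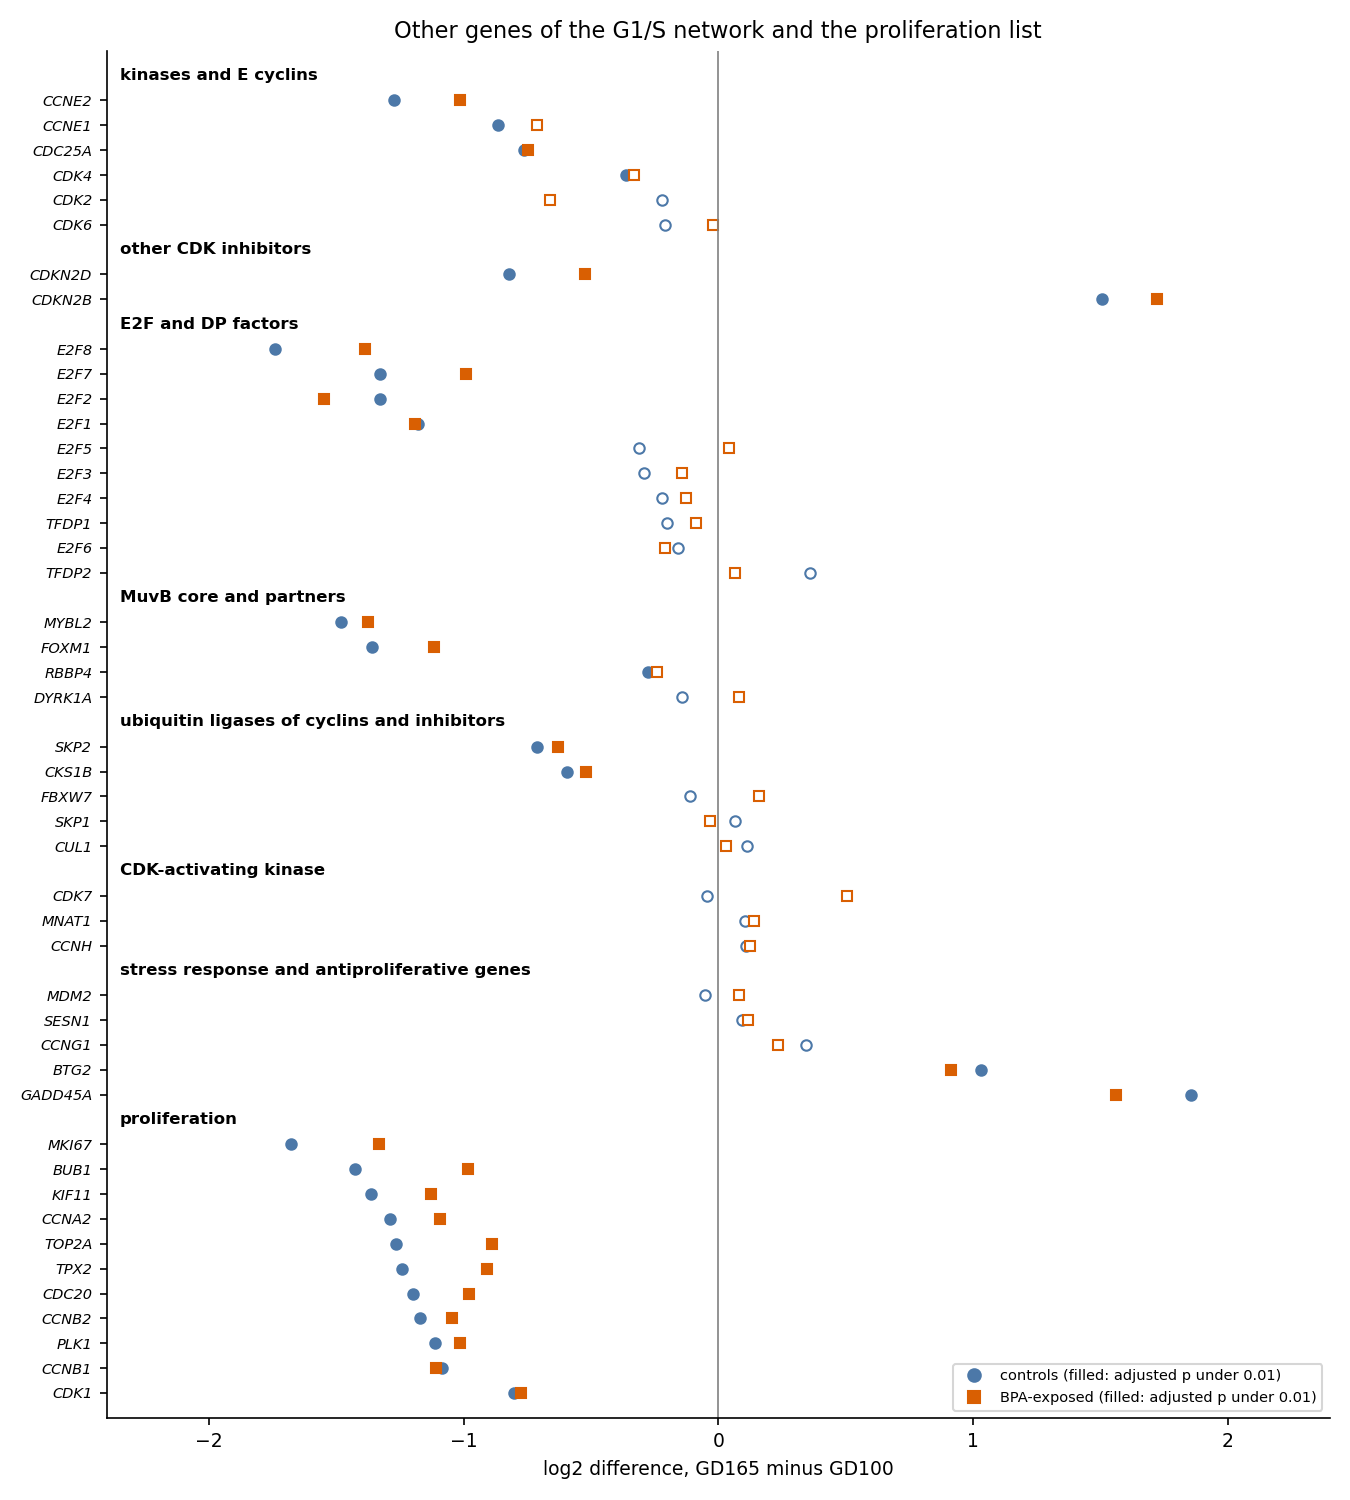
Log2 difference between GD165 and GD100 for 35 other genes of the G1/S network, grouped by role, and 11 proliferation markers, in controls (circles) and BPA-exposed animals (squares). Filled symbols passed an adjusted p of 0.01, and the proliferation markers all lie to the left of 0 while CDKN2B, GADD45A and BTG2 lie to the right.

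The levels of the 9 genes were set against a proliferation score, the mean of the 11 markers on each array after centering each marker. The score was 0.45 ± 0.08 (SD, n = 5) in controls at GD100 and −0.79 ± 0.19 (SD, n = 4) at GD165. In BPA animals it was 0.50 ± 0.05 (SD, n = 5) and −0.53 ± 0.41 (SD, n = 3). Since the ages formed separate clusters, relations were computed within each age, 18 in all, and none passed an adjusted p of 0.05. CDKN2C at GD165 came closest, with Pearson's r of 0.86 (exact permutation p = 0.0131, adjusted p = 0.24) and Spearman's rho of 0.89 (exact permutation p = 0.0123, adjusted p = 0.22) over 7 arrays. Without the 2 arrays farthest from the median score its r was 0.50 over 5 arrays. At GD100 the same gene had r of 0.16 over 10 arrays (permutation p = 0.67, adjusted p = 0.92). GD165 BPA replicate 5 had the highest score at GD165, −0.11, and the highest CDKN2C level at that age. For CCND2, r was 0.37 at GD100 (permutation p = 0.30) and −0.42 at GD165 (exact permutation p = 0.35), both with an adjusted p of 0.72.

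**Figure D4:**
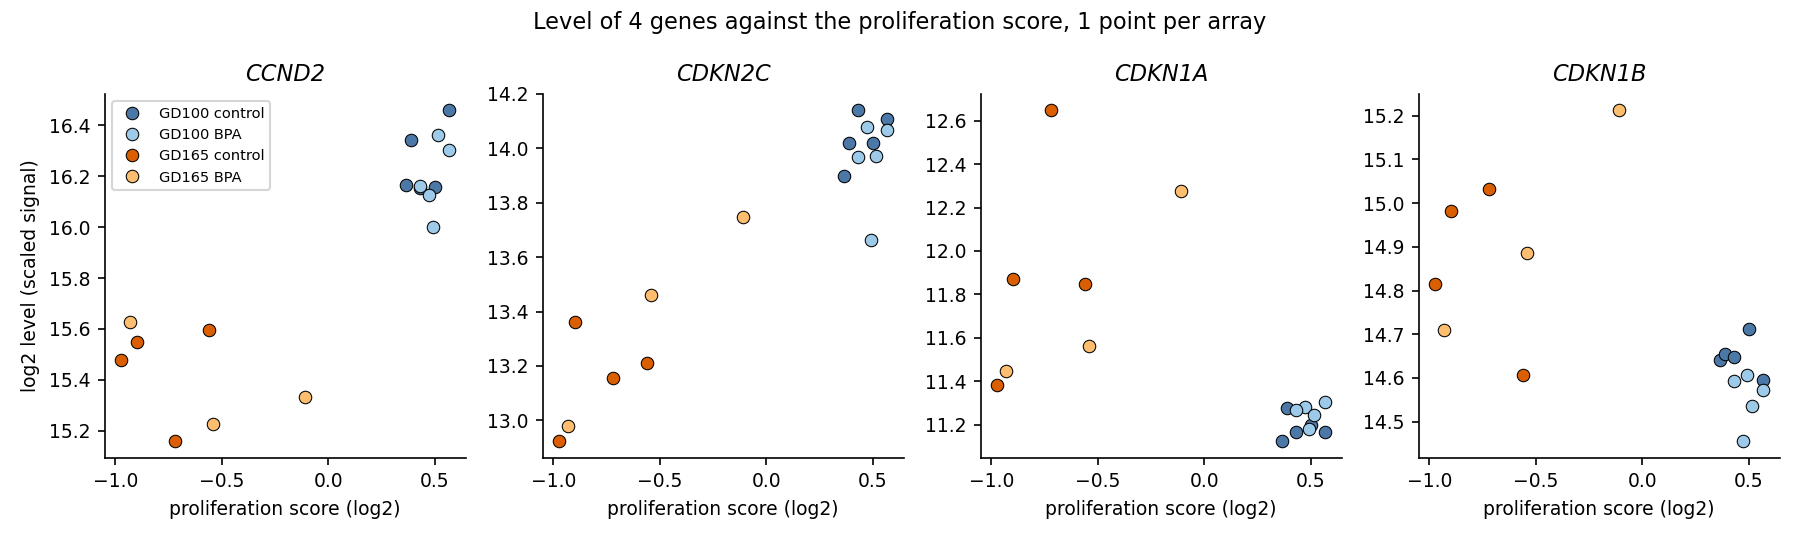
Level of CCND2, CDKN2C, CDKN1A and CDKN1B against the proliferation score, with 1 point per array and both axes on the log2 scale. The GD100 arrays form a cluster at scores of 0.37 to 0.57 and the GD165 arrays lie between −0.97 and −0.11, and CDKN2C is highest at GD165 on the array with the highest score.

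The genes most like the 2 that fell between the control ages were found by Pearson's r over the 17 arrays, among 13622 other named genes whose probe was well above background on every array. This r carries the difference between the ages and is given as a description only. For CDKN2C the nearest were C15orf23 (r = 0.98), FAM64A (r = 0.98) and the cytokinesis kinesin KIF23 (r = 0.97), names as on the array. For CCND2 they were ZNF74 (r = 0.97), LMO4 (r = 0.96) and CSPG2, the older symbol of the matrix proteoglycan versican (r = 0.96).

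BPA-exposed animals were compared with controls at each age to see whether exposure moved the checkpoint genes. At GD100 none of the 9 measured genes passed (0, beside 0% of all probes), and 0 had an unadjusted p under 0.05 in limma. The log2 differences ran from −0.19 for RBL1 (95% confidence interval −0.47 to 0.10) to 0.07 for CDKN1A (−0.33 to 0.47), and the 9 intervals together spanned −0.47 to 0.47. On the second RBL1 probe the difference had the other sign, at 0.29 (−0.23 to 0.81). For 0 of 9 genes did the groups not overlap, beside 0.782% of all probes. CDKN1B was 0.10 lower in BPA animals (−0.30 to 0.11, adjusted p = 0.9999), and the levels overlapped only between 14.60 and 14.61. The exact permutation test of that gene gave a two-sided p of 0.0159, unadjusted and the lowest of the 9.

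At GD165, 0 of 9 passed (beside 0% of all probes), 0 had an unadjusted p under 0.05 and 0 showed groups without overlap (beside 7.31%). The differences ran from −0.33 for CCND3 (95% confidence interval −0.82 to 0.17) to 0.23 for CDKN2C (−0.10 to 0.57). RB1 had the lowest adjusted p, 0.67, at a difference of 0.13 (−0.04 to 0.30), where replicate 3 was at 9.505 and the other 2 BPA animals were at 9.19 and 9.30. RBL1 was 0.24 lower (−0.58 to 0.11), CDKN1A 0.18 lower (−0.66 to 0.31) and CDKN1B 0.08 higher (−0.17 to 0.32). On its second probe RBL1 was 0.06 higher (−0.57 to 0.69). CCND1, CCND2 and RBL2 were within 0.05 of the controls, with intervals of −0.28 to 0.27, −0.33 to 0.23 and −0.36 to 0.26. On slide 5, the only slide with both GD165 groups, CDKN2C was 0.14 lower and CCND3 0.27 lower in BPA animals. The intervals at GD165 leave room for differences of up to 0.82 on the log2 scale in CCND3.

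The BPA effects at the 2 ages did not differ by test in any of the 9 genes (0 passed, beside 0% of all probes, and 0 had an unadjusted p under 0.05). The differences between the effects ran from −0.36 for CCND3 (95% confidence interval −1.0001 to 0.28) to 0.32 for CDKN2C (−0.11 to 0.75), and the lowest adjusted p was 0.73, for RB1. These values also give the difference of the age change between BPA-exposed and control animals.

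**Figure D5:**
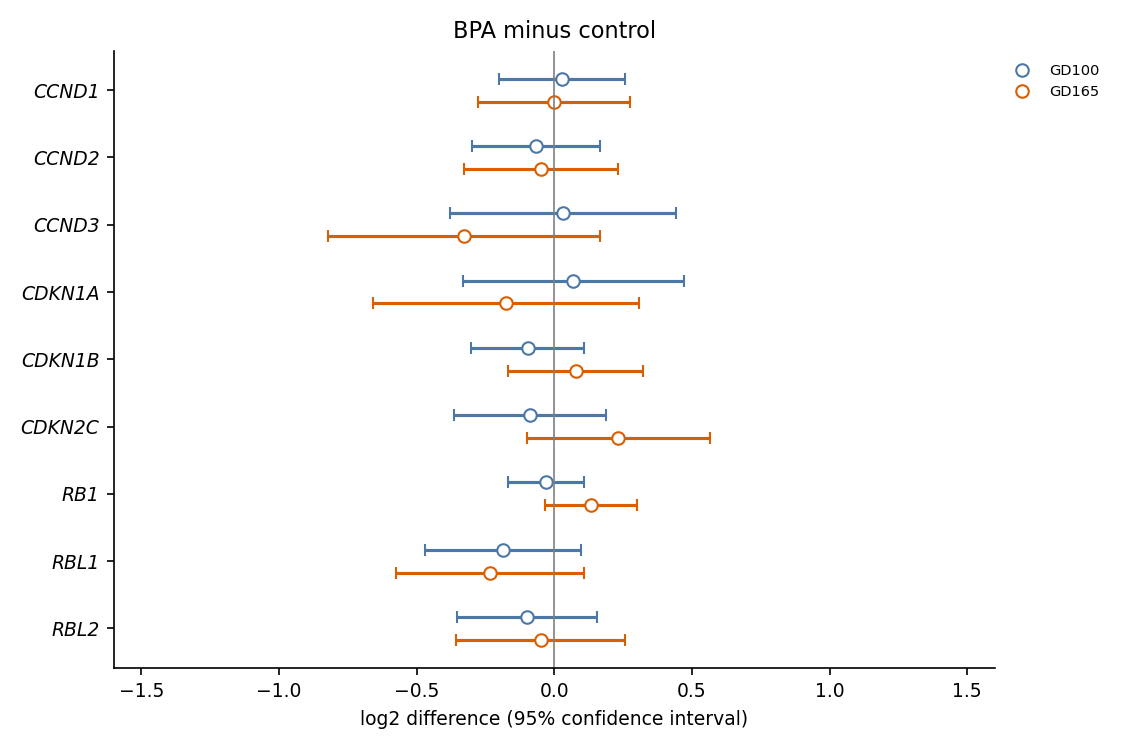
Log2 difference between BPA-exposed and control animals for 9 genes at GD100 and GD165, with 95% confidence intervals. All points are open because none passed an adjusted p of 0.01, and every interval contains 0.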

How the data were processed

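The authors labeled RNA of each uterus with Cy3, hybridized it to a 1-color Agilent rhesus array and extracted spot signals with Feature Extraction 9.5, whose 1-color defaults subtract background and detrend within the array. The deposited values are linear intensities, not scaled between arrays. Here both spots of each probe were averaged on the log2 scale, leaving out control spots and outlier spots, and each array was scaled to its 75th percentile, with the mean percentile (12.62) added back. A model in limma 3.58.1 (R 4.3.3), with eBayes moderation, took in 17 arrays in 4 groups, with two-sided tests, Benjamini-Hochberg adjustment over 20217 probes and a threshold of 0.01, after the study's methods. The error-weighted test of the study was not repeated. The number of arrays limits the precision.

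Exact permutation tests and correlations used scipy 1.17.1. The correlations at GD100 used random permutations and those at GD165 all orders. All 10 genes were named. Of the G1/S list those past the threshold in a comparison were named, with up to 4 others of smallest p where few passed. Some more that did not pass were also named. Of the proliferation list MKI67 and the extremes were named, and for each gene that passed between control ages the 3 most like it. A few values were singled out after they were seen. The genes and lists were chosen with earlier results of these data known. Genes of the lists with no probe by name were not analysed here. The fit was also run on simulated arrays with known changes, independent noise and the same spread in every group. That simulation did not cover slides or a spread that differs between the ages, as it did for CDKN1A. Alternatives covered background correction, scaling, filters, weights, moderation, slide, replicate number, threshold, probe averaging and each animal left out.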

Additional observations from a re-analysis of the deposited data

Results flagged for a closer look

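Each gene was checked, in groups of 4 or 5 arrays, for a single array far from the others. Of 30 groups examined, counting both RBL1 probes, 1 held such a value, and chance gives about 1 in 20. CDKN2C in GD100 BPA replicate 1 was at 13.66, while the other 4 arrays of its group lay between 13.97 and 14.08, and the gap to the nearest was 0.73 of the range of the group. The same array had the highest skeletal muscle sum at GD100 (1755). Without it, the age difference of CDKN2C in BPA-exposed animals was −0.63 (limma adjusted p = 0.0107) and the BPA difference at GD100 was −0.02.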

How the results depend on the processing

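Over the alternatives the age changes of CCND2 were −0.86 to −0.72 in controls, and those of CDKN2C −0.94 to −0.79. In controls the count of genes past the threshold was 2, with 4 at a threshold of 0.05 and 1 with slide as a fixed block. In BPA-exposed animals it was 2, with 4 at 0.05 and 1 when the fit held just the groups compared, 1 with slide as a fixed block and 1 with replicate number as a block. With 1 animal left out it was 2 to 3 in controls, 1 to 3 in BPA-exposed animals and, in the average over both treatments, 3 to 5 against 6 with all animals. Lowest was the average without GD165 BPA replicate 5. The number of all probes past the threshold ranged from 958 to 4279 in controls (2328 as reported), from 512 to 4255 in BPA-exposed animals (1956) and from 2980 to 6869 in the average (4531). It was 0 or 1 in the comparisons of BPA with control and in the difference of the BPA effects.

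The sign turned only for differences that had not passed. At GD100, CCND1 was −0.0040 with scaling to the median and −0.013 without scaling, CCND3 −0.0081 without scaling, CDKN1A −0.097 with slide as a fixed block and RBL1 0.052 as the mean of both probes. At GD165, CCND1 was 0.025, 0.035, 0.16, 0.073 and 0.014 with scaling to the median, quantile normalization, no scaling and slide as a fixed and a random block. Also at GD165, CCND2 and RBL2 were 0.11 and 0.11 without scaling, CDKN1A 0.083 with the replicate block and CDKN1B −0.032 with slide as a fixed block. With both arrays highest in skeletal muscle left out, CCND2, RBL2 and CDKN1B were 0.032, 0.038 and −0.14. The averaged age difference of RB1 was −0.0052, −0.021, −0.036, −0.017 and −0.0027 with normexp, scaling to the median, quantile normalization and slide as a fixed and a random block. With 1 animal left out the BPA differences at GD100 were −0.034 to 0.13 for CCND1 and −0.13 to 0.12 for CCND3. At GD165 they were −0.026 to 0.030 for CCND1, −0.16 to 0.035 for CCND2, −0.43 to 0.062 for CDKN1A, −0.061 to 0.19 for CDKN1B and −0.14 to 0.00069 for RBL2. RB1 was −0.0027 to 0.15 with age in BPA-exposed animals and −0.042 to 0.036 in the average. The cause was not tested.

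Of 19 same-numbered pairs of animals, 3 had a correlation of deviations over 0.1 (range −0.17 to 0.16). Pairs with different numbers were not computed, so this does not settle whether the replicate numbers pair the animals. With the replicate block CCND3 in BPA-exposed animals (adjusted p = 0.026), and CDKN1B (0.040) and RBL2 (0.025) in the average, lost their calls, and no other call of these genes changed.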
